A study of Mus musculus with 16 samples.

Results

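The genes described here carry the RANK and M-CSF signals that turn marrow myeloid precursors into osteoclasts, the cells that resorb bone. They were taken from a list of 10 mouse gene symbols, and all 10 were found among the 25239 genes of the authors' deposited RNA table. A search by gene name in the authors' deposited peak table gave 7 of its 13083 m6A peaks, spread over 4 of the 10 genes. The list names the genes by symbol, without a threshold on a measured value, and was drawn up with earlier results of these data known.

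Bone of wild type mice was profiled after removal of the ovaries or after a sham operation, for RNA and for N6-methyladenosine (m6A), a mark on adenosines inside messenger RNA. The question of the study is the link between m6A and osteoporosis. Each arm had 4 input libraries of RNA and 4 libraries immunoprecipitated (IP) with an antibody to m6A, 16 in all, titled OVX for ovariectomy and NC for the sham arm. The treatment field reads ovariectomy for all 8 IP libraries, including the 4 titled NC, and the titles were followed. The labels give no age, strain or time after surgery, and do not say whether the libraries came from separate animals, so that p-values may measure technical spread. Whole bone holds many cell types, and fewer cells of a type cannot be told apart from less RNA per cell.

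RANKL (gene Tnfsf11) is a cytokine of the TNF family that osteocytes, stromal cells and lymphocytes display or shed. It binds RANK (Tnfrsf11a) on myeloid precursors, and osteoprotegerin (Tnfrsf11b) is a soluble decoy receptor that captures it first. M-CSF (Csf1) acts through its receptor tyrosine kinase (Csf1r) to keep the precursors alive and competent for RANKL. Loss of estrogen is known to raise osteoclast formation and bone resorption, and these signals are the textbook route.

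The deposited tables hold comparisons between the arms and no value of a single library, so values by library cannot be shown. They also do not say which arm is the numerator of the fold changes, and the choice may differ between the RNA and the m6A table. Signs are therefore written as the tables have them, and a positive value cannot be read as a higher level in either arm. Each fold change below is a log2 value with its standard error (SE) from the authors' deposited table. Its 95% interval was computed here from the SE.

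None of the 10 genes passed an adjusted p of 0.05 in the authors' deposited table (Wald test, Benjamini-Hochberg adjustment over 15396 tested genes), where 12.2% of all tested genes passed, 6.07% with a positive and 6.11% with a negative sign. At an unadjusted p of 0.05, 1 of the 10 passed in the authors' deposited table, against 25.7% of tested genes. Of the 10 fold changes, 7 were negative and 3 positive in the authors' deposited table, where 53.3% of tested genes were negative. Their median was -0.32 beside -0.02 for all tested genes, and their median absolute size was 0.32 beside 0.20, from the authors' deposited table. The median SE was also larger, 0.26 for the 10 genes beside 0.17 for all tested genes. Whether their sizes go beyond this larger SE was not tested. The negative genes held the decoy receptor, RANK, M-CSF, its receptor and 3 osteoclast surface proteins. The positive ones were RANKL and the signal carriers Traf6 and Nfatc1.

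**Figure D1:**
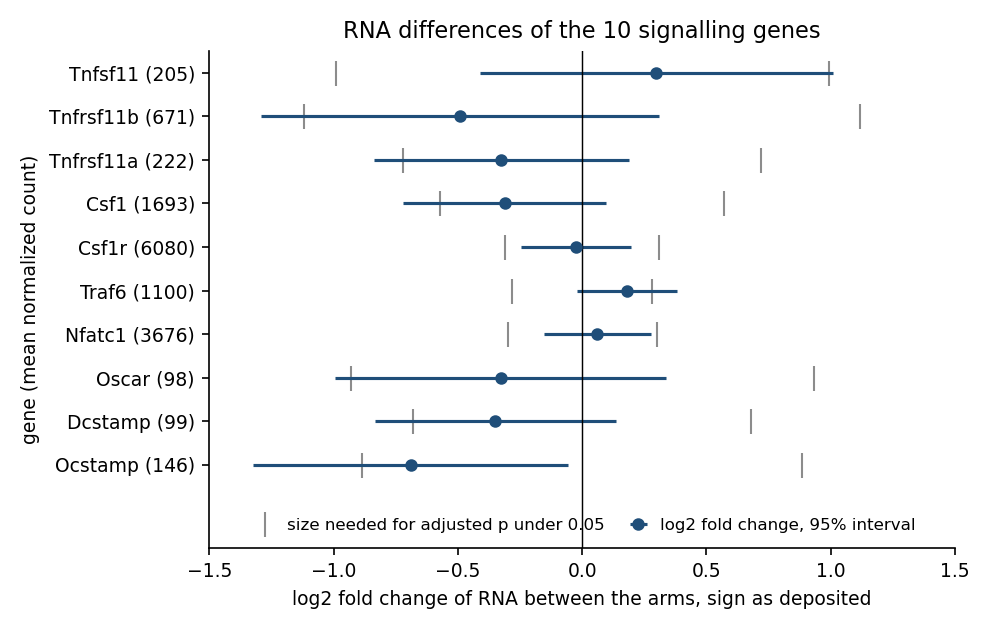
Log2 fold change of RNA between the arms for the 10 genes, ordered by role, with the mean normalized count in brackets. Points are the deposited fold changes with their sign as deposited, bars are 95% intervals from the SE (4 libraries in each arm), and grey ticks mark the size each gene would have needed to pass the adjusted threshold. No point lies beyond its own ticks, and the bar of Ocstamp alone stays clear of 0.

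Of the ligand and its decoy, RANKL was positive and osteoprotegerin negative, and neither passed. Tnfsf11 had a fold change of 0.30 ± 0.36 (SE) at a mean normalized count of 205 in the authors' deposited table (Wald adjusted p = 0.645). Its interval reached from -0.41 to 1.01, which leaves anything between 0.752-fold and 2.01-fold. Tnfrsf11b had -0.49 ± 0.41 at a mean count of 671 in the authors' deposited table (Wald adjusted p = 0.478). The interval of Tnfrsf11b was -1.29 to 0.31, the widest of the 10 genes, and it leaves 0.409-fold to 1.24-fold. The size each gene needed for a call, given further on, lay inside its interval.

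The mean count and the fold change together imply a mean for each arm, if the fold change is the ratio of the arms' means. For Tnfsf11 these were 226 counts in the numerator arm and 183 in the denominator arm. For Tnfrsf11b they were 558 in the numerator arm and 784 in the denominator arm. The log2 ratio of RANKL to osteoprotegerin, the usual summary of this axis, differed between the arms by 0.79. Its SE was 0.55 if the errors of the 2 genes are independent, with an interval of -0.28 to 1.86. The tables hold no covariance between genes, so no p was computed for this ratio.

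RANK, the receptor on the precursor, was negative and did not pass. Tnfrsf11a had -0.33 ± 0.26 at a mean count of 222 in the authors' deposited table (Wald adjusted p = 0.462). Its interval, -0.84 to 0.19, leaves 0.559-fold to 1.14-fold. The ligand and receptor thus had opposite signs, with overlapping intervals.

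The M-CSF pair was measured at high counts. Csf1 had -0.31 ± 0.21 at a mean count of 1693 in the authors' deposited table (Wald adjusted p = 0.355), with an interval of -0.72 to 0.10. Csf1r stood at -0.03 ± 0.11 with a mean count of 6079.8 in the authors' deposited table, at the 89.7th percentile of tested genes by mean count (Wald adjusted p = 0.922). Its interval was -0.25 to 0.20, so a difference beyond 0.842-fold or 1.15-fold lies outside it. Csf1r is carried by monocytes, macrophages and osteoclasts alike, and its value describes that whole compartment rather than osteoclasts alone.

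The carriers of the signal inside the cell were measured as tightly as Csf1r. TRAF6 is the adaptor that couples RANK to NF-kB and MAP kinases. Traf6 had 0.18 ± 0.10 at a mean count of 1099.8 in the authors' deposited table (unadjusted p = 0.078, Wald adjusted p = 0.256). The interval of Traf6, -0.02 to 0.38, leaves a level of 0.986-fold to 1.30-fold. NFATc1 is the transcription factor that drives the osteoclast programme. Nfatc1 had 0.06 ± 0.11 at a mean count of 3676 in the authors' deposited table (Wald adjusted p = 0.768), with an interval of -0.15 to 0.28. For Nfatc1 a difference beyond 0.899-fold or 1.21-fold lies outside the interval.

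The 3 surface proteins of differentiating osteoclasts were all negative and had the lowest counts. OSCAR is an immunoglobulin-like receptor that co-stimulates RANK through an ITAM adaptor. DC-STAMP and OC-STAMP, encoded by Dcstamp and Ocstamp, are multi-pass membrane proteins needed for precursors to fuse. Ocstamp had -0.69 ± 0.32 at a mean count of 146 in the authors' deposited table, the largest absolute fold change of the 10 genes. Its p was 0.033 before adjustment and 0.149 after it in the authors' deposited table (Wald test, Benjamini-Hochberg), rank 3393 of 15396 tested genes.

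The interval of Ocstamp was -1.32 to -0.06, or 0.400-fold to 0.962-fold, the only one of the 10 that left out 0. Its implied arm means were 112 counts in the numerator arm and 180 in the denominator arm. Dcstamp had -0.35 ± 0.25 at a mean count of 98.8 in the authors' deposited table (Wald adjusted p = 0.389), with an interval of -0.84 to 0.14. Oscar had -0.33 ± 0.34 at a mean count of 97.6 in the authors' deposited table (Wald adjusted p = 0.582), with an interval of -0.99 to 0.34. The fusion proteins and OSCAR thus shared a sign, and none of the 3 was called.

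How far the libraries of an arm spread was read back from each SE. Under a negative binomial model with 4 libraries in each arm, the SE and the mean count give the coefficient of variation (CV) between libraries beyond counting error. The narrowest spread of the 10 genes was that of the M-CSF receptor and the signal carriers. Traf6, Nfatc1 and Csf1r had implied CVs of 9.65%, 10.6% and 11.0%. Their nearest 500 genes by mean count had median CVs of 12.3%, 10.5% and 10.4%. Csf1 stood at 20.3%, beside a median of 11.7% for its nearest 500 genes.

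Tnfrsf11b had the highest implied CV of the 10 genes, 39.8%, beside a median of 15.1% among genes of like count, above 94.4% of them. Tnfsf11 followed with 34.8% beside 20.6%, above 84.2% of the genes of its count. Tnfrsf11a had 24.8%, Oscar 31.7% and Ocstamp 30.5%, while the medians of their nearest genes were 20.5%, 29.4% and 24.4%. Dcstamp had 22.1% beside 29.3%, and with Traf6 it was one of 2 genes below the median of genes of like count. Under this model counting error made up 17.3% of the squared SE of Dcstamp, the highest share of the 10 genes, and 0.959% of that of Tnfrsf11b, the lowest. The spread between libraries made up the rest.

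**Figure D2:**
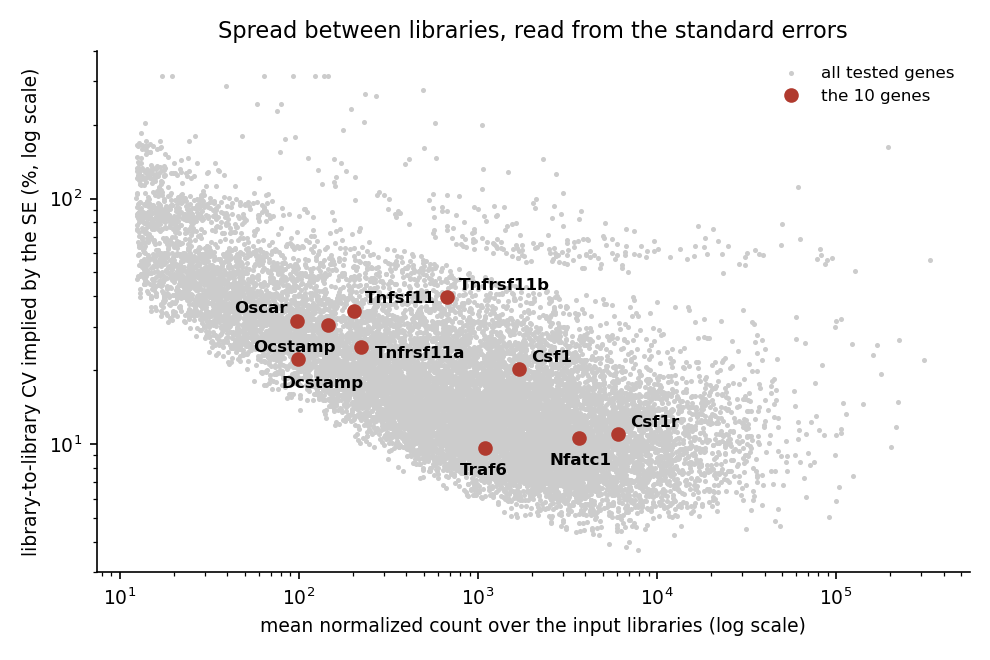
Coefficient of variation between libraries implied by each SE (vertical, %, log scale) against mean normalized count over the input libraries (horizontal, log scale), for all 15396 tested genes but 1 with an implied value of 0, in grey, and the 10 genes in red. Traf6, Nfatc1 and Csf1r lie between 9.65% and 11.0%, while Tnfrsf11b at 39.8% lies near the top of the genes of its count.

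The same SEs give the size that each gene needed for a call. The largest p among called genes in the authors' deposited table was 0.00609, which takes a Wald statistic of 2.74. Csf1r, Nfatc1 and Traf6 would have passed at absolute log2 fold changes of 0.31, 0.30 and 0.28, equal to 1.24-fold, 1.23-fold and 1.22-fold. Tnfsf11 needed 0.99, or 1.99-fold, and Tnfrsf11b needed 1.12, or 2.17-fold. Oscar, Ocstamp, Tnfrsf11a, Dcstamp and Csf1 needed between 0.57 and 0.93. For 8 of the 10 genes, all but Csf1r and Nfatc1, the interval extended past the size needed. A difference of that size thus lies inside the interval and is not shown to be absent. This count depends on the fold changes as well as on the SEs, and the share over all tested genes was not computed.

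The m6A peaks of these genes lay in Tnfrsf11b, Csf1, Traf6 and Nfatc1. No peak was listed for Tnfsf11, Tnfrsf11a, Csf1r, Oscar, Dcstamp or Ocstamp in the authors' deposited table, so both the ligand RANKL and its receptor were without one. Across all tested genes 44.3% had a peak in the authors' deposited table, and the share was higher among genes of high count. Among the 500 genes nearest to Csf1r in mean count, 365 (73.0%) had a peak in the authors' deposited table, while Csf1r had none. Among those nearest to Dcstamp and to Oscar only 66 of 500 each (13.2%) had one in the authors' deposited table, and near Tnfsf11 118 (23.6%). Whether a gene without a listed peak carries m6A below the authors' limit was not tested.

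Peak heights are enrichments of IP over input, a ratio, as the authors give them. Of the 7 peaks, 2 reached an enrichment of 2 in the authors' deposited table, where 37.3% of all peaks did. Their median was 1.53 beside 1.82 for all peaks, and 5 of the 7 lay below that median in the authors' deposited table. All 7 lay in a single exon block, as did 59.9% of all peaks in the authors' deposited table. Positions below are as that table gives them, counted from 1, and its genome build is not stated in it. All 7 lay inside the span of the gene of that name in the GRCm38.p6 RefSeq table, which holds no exons or UTRs, so these were not assigned.

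Traf6 carried the highest peak of the 4 genes. On chromosome 2, plus strand, it covered 450 bases at chr2:101696828-101697277 with an enrichment of 2.80 in the authors' deposited table, at the 93.5th percentile of all peaks. A second, lower peak of 101 bases followed 149 bases downstream at chr2:101697427-101697527, with an enrichment of 1.54 in the authors' deposited table. Nfatc1 showed the same order, a high peak followed by a low one. Its upstream peak covered 300 bases of the minus strand at chr18:80607602-80607901 with an enrichment of 2.11 in the authors' deposited table. Its downstream peak, 299 bases further on at chr18:80607203-80607302, covered 100 bases at 1.39 in the authors' deposited table. In each of these genes both peaks are listed with the same p against input, log10 -10.9 in Traf6 and -9.04 in Nfatc1 in the authors' deposited table. Such an equal p, compared as printed in the table, was found in 27.7% of neighbouring peak pairs of a gene. Whether peaks with an equal p came from 1 call was not tested.

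Csf1 had 2 peaks on the minus strand of chromosome 3, 5742 bases apart, each of 249 bases and each with an enrichment of 1.53 in the authors' deposited table. They lay at chr3:107748579-107748827 and, further downstream, at chr3:107742588-107742836, with separate p-values of log10 -11.9 and -10.2 in the authors' deposited table. Tnfrsf11b had a single peak of 149 bases on the minus strand at chr15:54251855-54252003. Its enrichment of 1.20 was the lowest of the 7, at the 2.44th percentile of all peaks in the authors' deposited table.

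No peak of these genes differed between the arms past a p of 0.05 in the authors' deposited table, where 4.92% of all peaks did. At a false discovery rate (FDR) of 0.05, 0 of the 7 passed in the authors' deposited table, against 0.0229% of all peaks. All 7 log2 differences of enrichment were negative in the authors' deposited table, where 39.4% of all peaks were negative and the median was 0.05. The 2 peaks of Csf1 stood at -0.28 (p = 0.259) and, downstream, at -0.43 (p = 0.117) in the authors' deposited table. That downstream peak had the smallest p of the 7, and its difference exceeded in size those of 89.9% of all peaks.

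The Tnfrsf11b peak had -0.31 (p = 0.721) and the upstream Nfatc1 peak -0.32 (p = 0.187) in the authors' deposited table. The downstream Nfatc1 peak had -0.11 (p = 0.956) in the authors' deposited table. The tall Traf6 peak had -0.02 (p = 0.990) and the low one -0.24 (p = 0.885) in the authors' deposited table. The strongest peak of these genes was thus also the one with the smallest difference. The FDR was 1 for all 7, as for 94.8% of all peaks in the authors' deposited table. The table gives no SE for these differences, so no interval can be set around them.

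**Figure D3:**
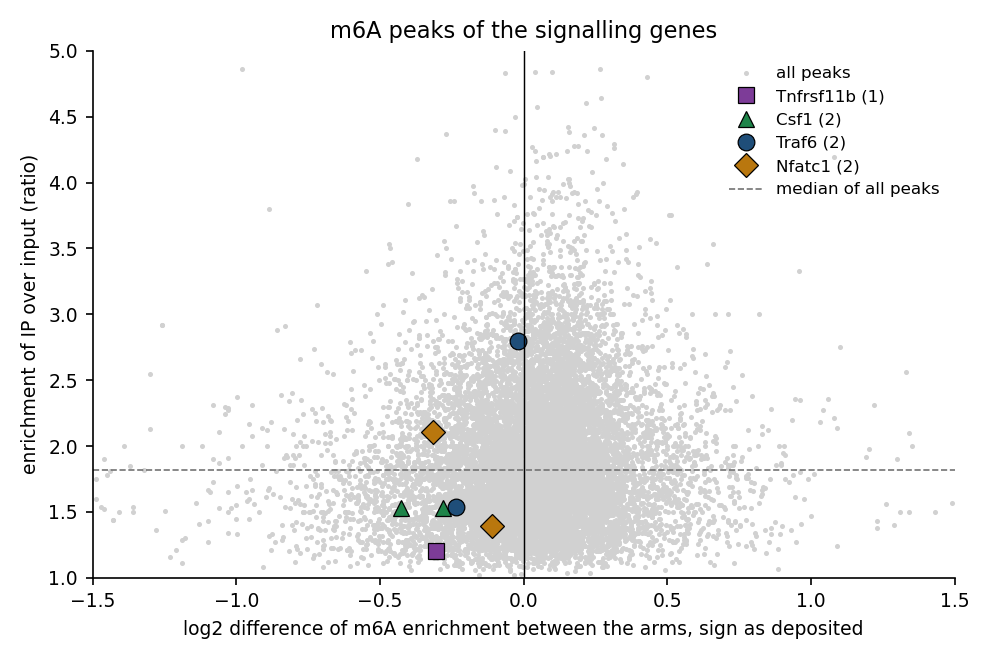
Enrichment of IP over input (vertical, ratio) against log2 difference of m6A enrichment between the arms (horizontal, sign as deposited) for all 13083 peaks in grey, of which 23 lie outside the plotted range, and the 7 peaks of Tnfrsf11b, Csf1, Traf6 and Nfatc1. All 7 lie left of 0, and only the upstream peaks of Traf6 (2.80) and Nfatc1 (2.11) lie above the median of 1.82.

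Set beside the RNA values, the negative m6A differences went with RNA fold changes of either sign. Csf1 and Tnfrsf11b had RNA values of -0.31 and -0.49, while Traf6 and Nfatc1 had 0.18 and 0.06 in the authors' deposited table. Since the numerator may differ between the tables, equal signs do not show equal directions.

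Around these 10 genes, 8 lists of other genes of the pathway were read in the same way. Of 130 tested pathway genes outside the 10, 15 (11.5%) passed the adjusted threshold, 8 positive and 7 negative, in the authors' deposited table, beside 12.2% of all tested genes. Their median fold change was -0.03.

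In the RANK complex and NF-kB list, 4 of 20 genes passed, 2 with each sign, in the authors' deposited table. Nfkb2, a precursor subunit of non-canonical NF-kB, had 0.38 ± 0.09 and Traf5, a TRAF adaptor related to Traf6, had 0.44 ± 0.12 in the authors' deposited table (Wald adjusted p = 0.0015 and 0.0044). Sqstm1, the scaffold p62 mutated in human Paget disease of bone, had -0.32 ± 0.08 in the authors' deposited table (adjusted p = 0.0035). Cyld, a deubiquitinase that removes ubiquitin chains from TRAF6, had -0.25 ± 0.08 in the authors' deposited table (adjusted p = 0.029).

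Of 19 genes of ITAM co-stimulation and calcium signalling, the authors' deposited table called 3 positive ones and 1 negative one. Blnk, an adaptor of B cells as well as of osteoclast precursors, had 1.13 ± 0.15 and the kinase Syk had 0.63 ± 0.09 in the authors' deposited table (Wald adjusted p = 1.2e-10 and 7.2e-10). The calcium channel Itpr2 had 0.24 ± 0.08 and Ppp3r1, the regulatory subunit of calcineurin that activates NFATc1, had -0.22 ± 0.06 in the authors' deposited table. Tyrobp, the adaptor DAP12, was chosen after its value was seen and stood at 0.03 ± 0.19 in the authors' deposited table. Both Blnk and Syk act in the B cell receptor pathway. All 8 B cell markers were positive, none was at 0, and the authors' deposited table called 7 of them. The B cell markers' part in the values of Blnk and Syk, or in that of Tnfsf11, which lymphocytes also make, was not tested. The part of these markers in the values of the other called pathway genes was not tested either.

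Among 19 tested negative regulators of osteoclast formation, 2 positive and 3 negative genes passed in the authors' deposited table. Nfkbie, an inhibitor of NF-kB, had 0.36 ± 0.10 in the authors' deposited table. The cytokine signalling inhibitor Socs3 had -0.52 ± 0.13, the growth factor signalling inhibitor Spry1 had -0.44 ± 0.14 and the interferon gamma receptor Ifngr1 had -0.20 ± 0.07 in the authors' deposited table. Socs1, the fifth call, was chosen after its value was seen and had 0.93 ± 0.33 at a mean count of 89.1 in the authors' deposited table. Of 13 genes of M-CSF receptor signalling, Inpp5d passed with 0.31 ± 0.08 in the authors' deposited table (adjusted p = 0.0043). It encodes the lipid phosphatase SHIP1, which restrains signalling below the M-CSF receptor. The alternative ligand of that receptor, Il34, was chosen after its value was seen and had -0.18 ± 0.34 in the authors' deposited table.

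No gene passed among 17 tested MAP kinase, AP-1 and PI3K genes, among 12 genes of cell fusion and Prdm1, or among 18 tested inducers of RANKL and their receptors, in the authors' deposited table (Wald test). The nearest to the threshold were Map2k7 with -0.57 ± 0.21 and Map2k3 with 0.20 ± 0.08, both kinases that activate MAP kinases, in the authors' deposited table (adjusted p = 0.055 and 0.092). In the fusion list they were Atp6v0d2, a proton pump subunit needed for fusion, with -0.54 ± 0.23, and the integrin Itgav with -0.26 ± 0.11, in the authors' deposited table. Among the inducers they were Ptgs2, which makes prostaglandins, with -2.14 ± 1.18 at a mean count of 30.5, and Il17ra with 0.19 ± 0.12, in the authors' deposited table. At an unadjusted p of 0.05, Map2k7, Map2k3, Atp6v0d2 and Itgav passed, and Ptgs2 and Il17ra did not.

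Of 15 resorption genes, which include Oscar and genes of the fusion list, only Ctsk passed, with -0.72 ± 0.20 in the authors' deposited table (adjusted p = 0.0052). Ctsk encodes the collagen-degrading protease cathepsin K. The median of that list was -0.24, beside -0.32 for the 10 differentiation genes, which share Oscar with it, and -0.02 for all tested genes.

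**Figure D4:**
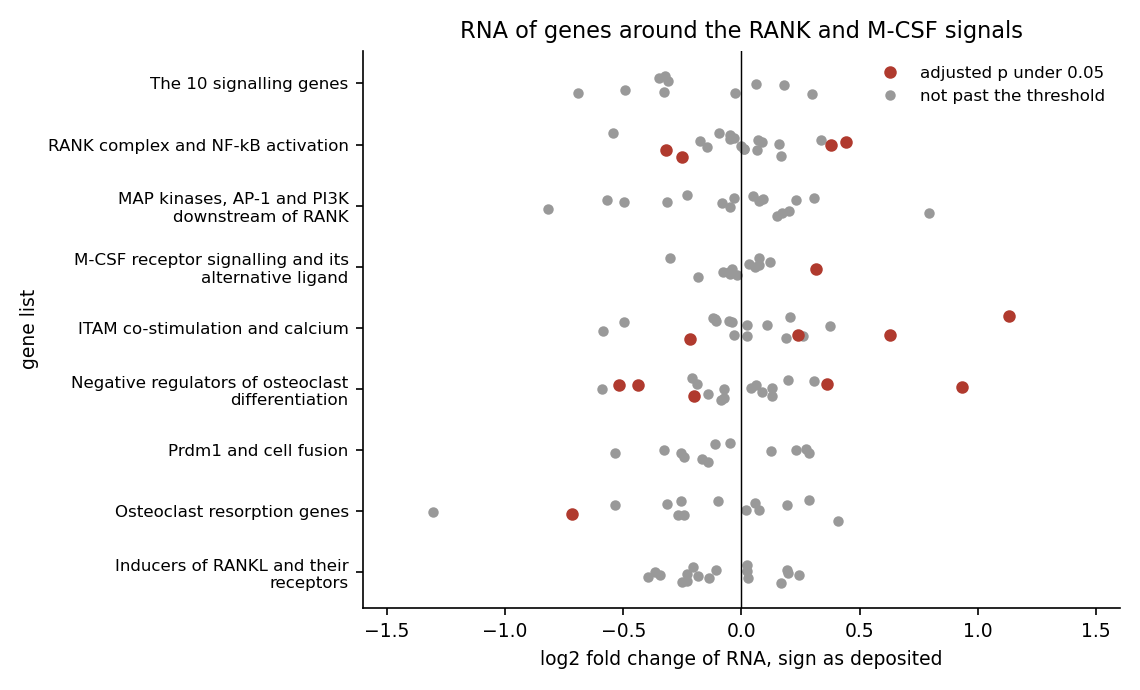
Log2 fold change of RNA, sign as deposited, for the 10 genes in the top row and for 8 lists of pathway genes below it, 1 point per gene and red where the deposited adjusted p was under 0.05. Ptgs2 at -2.14 lies outside the plotted range, and genes of 2 of the 8 lists appear in the rows of both. Oscar, also on the resorption list, is drawn in the top row only, and the top row holds no red point.

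The labelled tissue was checked against markers of the cells it could hold. Markers of osteoblasts, osteocytes, osteoclasts and monocytes with macrophages were all present in the authors' deposited table, with none at 0. Of 8 monocyte and macrophage markers, none passed (median -0.03), and at an unadjusted p of 0.05 Ccr2 and Fcgr1 passed with opposite signs, -0.25 and 0.33, in the authors' deposited table. Of 6 osteoclast markers, 5 were negative and 1 passed (median -0.40) in the authors' deposited table.

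All 6 marrow stroma markers were negative, and 2 of them were past the threshold, Cxcl12 and Lepr, at -0.51 ± 0.13 and -0.75 ± 0.26 in the authors' deposited table. Among 7 osteoblast markers, 3 were positive and 4 negative (median -0.04). The authors' deposited table called 2, both positive, Col1a1 at 1.12 ± 0.32 and Bglap at 1.08 ± 0.34. The negative ones included Ibsp with -0.53, Alpl with -0.49 and Spp1 with -0.42 in the authors' deposited table, chosen after their values were seen. Runx2 and Sp7 lay near 0, at -0.04 and 0.06, and were not called. Of 6 osteocyte markers, 5 were negative and none passed (median -0.27) in the authors' deposited table, with Pdpn at -0.71 and Phex at -0.56, both past an unadjusted p of 0.05. All 7 skeletal muscle markers were negative (median -1.37), the authors' deposited table called 2 of them, and their mean counts summed to 696081. All 6 endothelial markers were negative as well (median -0.34), and 1 passed, Eng with -0.33 ± 0.12. Of 6 tested T cell markers, 3 were positive and 3 negative (median -0.07), and 1 passed, Lck with 0.39 ± 0.13. Of 6 chondrocyte markers, 4 were positive and 2 negative (median 0.30), and none passed. Stromal cells and the osteoblast lineage are known sources of Tnfsf11, Tnfrsf11b and Csf1, and lymphocytes also make Tnfsf11. The part of these marker differences in the values of the 10 genes or of the pathway genes was not tested.

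Peaks of the 8 pathway lists were also read. Of 132 peaks in 72 of these genes, 6 (4.55%) had a difference p under 0.05 in the authors' deposited table, beside 4.92% of all peaks. Il17ra had the smallest p of these, with a difference of -0.27 at chr6:120481743-120482288 (p = 4.8e-04, FDR = 0.261) in the authors' deposited table. The inhibitory receptor gene Pirb had -0.39 (p = 0.0065) and the phosphatase gene Ptpn6 0.14 (p = 0.022) in the authors' deposited table, genes named after their values were seen. Cyld had 0.38 at chr8:88705468-88707373 (p = 0.0083) and Nfkbie 0.34 at chr17:45562671-45562870 (p = 0.018) in the authors' deposited table. Syk had the largest p of the 6, with -0.05 at chr13:52631668-52638081 (p = 0.030) in the authors' deposited table. None of the 6 passed at an FDR of 0.05. Of the 132 peaks 42.4% had a negative difference in the authors' deposited table, near the 39.4% of all peaks.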

How the data were processed

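Both tables hold the authors' own comparisons. The authors deposited, for each gene, a mean normalized count signal, the log2 fold change and its SE, the Wald statistic as a score, and p-values before and after adjustment. For each peak the authors deposited a p-value against input, its log10 value and that of the FDR, the enrichment ratio, and a log2 difference between the arms whose log10 p and FDR are treated as a score. These descriptions come from the file headers. HISAT2, StringTie and DESeq appear in the submitters' processing notes without roles, together with the rat build rn6, although the samples are mouse. The peak caller and any pooling of replicates were not given in the sources at hand. Neither table gives the depth of a library, and the mean counts summed to 43717045.

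The deposited tests were read and not refitted, because counts of single libraries were not in the tables. Recomputing the Benjamini-Hochberg adjustment over the tested genes returned the deposited adjusted p-values. Intervals of 95% use the deposited SE and a normal approximation. Implied CVs assume a negative binomial model with equal library sizes and 4 libraries in each arm. On simulated counts, the SE of that formula was compared with the spread of the fold changes. The CV was read back only from an SE computed with the known CV, so reading it from a fitted SE was not tested. Implied CVs include any shrinkage in the authors' fit. The highest implied CV was 316%, and 7 tested genes stood at or close to it. Transcript lengths were not used, so levels are not compared between genes. The genes and lists were chosen with earlier results of these data known. From each list up to 4 called genes by smallest p were named, or the 2 with the smallest p where none passed. Python 3.11.15, numpy 2.4.6, scipy 1.17.1, pandas 2.3.3 and matplotlib 3.10.9 were used.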

Additional observations from a re-analysis of the deposited data

How the results depend on the processing

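The count of 0 among the 10 genes became 1, Ocstamp, with no adjustment, and was 0 when adjusted over all 19015 genes with a p, over the 13701 genes that averaged 50 counts or more, and at an adjusted p of 0.1. The adjusted p of Ocstamp lay between 0.139 and 0.179 over these adjustments. No peak of the 10 genes passed at an FDR of 0.05, at p under 0.01 or with enrichment of at least 2 required. Each of these settings is stricter than the p under 0.05 that no peak passed, so the count could not change. At an enrichment of at least 1.5, 5 of the 7 peaks counted as high, as did 78.8% of all peaks. With a peak FDR under 0.001 required, 2 reached an enrichment of 2. All 7 peaks met that FDR, so this filter could not change the count either. The 0.79 between Tnfsf11 and Tnfrsf11b has an SE of 0.05 if the errors are fully and positively correlated, against 0.55 if independent. With negatively correlated errors its SE would be above 0.55. The error of this difference thus rests on an assumption the tables cannot settle. The pathway count was 15 under that minimum of 50 counts as well. No paired analysis was possible because the tables hold no values of single libraries. For the same reason other normalizations and leaving out libraries were not run. The search for GGAC in peaks and levels per length were not run either, since no genome or transcript lengths were at hand.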
